A study of Mus musculus with 18 samples.

Results

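Aminoacyl-tRNA synthetases, the enzymes that load each amino acid onto its tRNA for protein synthesis, were followed across 6 groups of mouse CD4+ T cells. The set comprised 36 gene symbols, 20 for cytosolic enzymes and 16 for mitochondrial enzymes (the symbols ending in 2), found by gene name. A probe set assigned to 1 gene was named for 26 of them, 18 cytosolic and 8 mitochondrial, among 12393 genes on the array with such a probe set. The cytosolic genes Dars and Mars and the mitochondrial genes Aars2, Cars2, Lars2, Mars2, Nars2, Vars2, Wars2 and Yars2 were not analysed here. The probe set of highest mean over the 18 arrays stood for its gene, and genes entered the tests if it was at log2 4 or more on at least 3 arrays. All 18 cytosolic genes and 7 of the 8 mitochondrial genes passed this filter, as did 6873 genes of the whole array. Ears2, the mitochondrial glutamyl-tRNA synthetase, read 2.57 to 3.94 and was not tested. Of the 25 genes tested, 24 lay at or above log2 4 on all 18 arrays, and Pars2 did so on 16.

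The study asked how estrogen-related receptor alpha (ERRα), the product of Esrra and a nuclear receptor known for activating genes of mitochondrial energy metabolism, bears on gene expression in CD4+ T cells. There were 3 independent replicates per group: wild-type cells with 20 µM XCT790, wild-type cells with 20 µM compound A, stimulated knockout (ERRa-/-) cells, stimulated wild-type cells, resting knockout cells and resting wild-type cells, all from mice 6 to 8 weeks old. Cells were enriched by negative selection to a stated purity above 95%; resting cells were harvested directly from the animal, and stimulation lasted 12 h and used anti-CD3 and anti-CD28 antibodies (10 µg). XCT790 acts on ERRα as an inverse agonist; compound A, the other inhibitor, is known here only by that code name. The stimulation field of the 6 inhibitor arrays reads as not stimulated, whereas the protocol places both inhibitors in the 12 h stimulation, so the inhibitor arrays were set against stimulated and against resting wild-type arrays. How the knockout allele was made, and the number of animals per array, are not given in the sources used here. Values are log2 signals on the scale the authors deposited, and differences between groups are log2 differences.

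Cytosolic synthetases charge tRNA for translation of nuclear messages, and several of them are held, with the scaffold proteins Aimp1, Aimp2 and Eef1e1, in a multisynthetase complex. The mitochondrial enzymes are encoded by separate nuclear genes, except that the genes for glycyl- and lysyl-tRNA synthetase, Gars and Kars, supply both compartments. When uncharged tRNA accumulates, the kinase encoded by Eif2ak4 leads to translation of the transcription factor ATF4, which binds a CCAAT-enhancer response element and is known to activate several cytosolic synthetase genes along with amino acid transporters and synthesis enzymes. Activated T cells are known to raise amino acid uptake and protein synthesis.

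Promoter windows of 300 bases, from 250 before to 50 after a transcript start, were taken from RefSeq (GRCm38.p6) for 27 of the 36 genes and for 16 of the 25 tested. The element TGATGNAA, written here as the ATF4 element and searched on both strands, occurred in 3.97% of all 32851 promoter windows. Among tested genes it occurred in 5 of 11 cytosolic windows, those of Aars, Gars, Iars, Tars and Yars, and in 0 of 5 mitochondrial windows. The E-box CACGTG, the motif bound by Myc, occurred in 7.15% of all windows and in 4 of the 11 cytosolic ones (Aars, Farsb, Iars and Tars), but in 0 of the 5 mitochondrial ones. The ERR element TCAAGGTCA occurred in 0.423% of all windows and in none of those of the tested synthetase genes. The 3 windows below are those with the ATF4 element whose genes changed most on stimulation of wild-type cells. They lie at chr8:111033592-111033891 (Aars, alanyl-tRNA synthetase), chr13:49681880-49682179 (Iars, isoleucyl-tRNA synthetase) and chr4:129189653-129189952 (Yars, tyrosyl-tRNA synthetase), all on the plus strand. Capitals mark each match to the ATF4 element and, where it reads CACGTG, the E-box; the motifs did not overlap in these windows.
Aars: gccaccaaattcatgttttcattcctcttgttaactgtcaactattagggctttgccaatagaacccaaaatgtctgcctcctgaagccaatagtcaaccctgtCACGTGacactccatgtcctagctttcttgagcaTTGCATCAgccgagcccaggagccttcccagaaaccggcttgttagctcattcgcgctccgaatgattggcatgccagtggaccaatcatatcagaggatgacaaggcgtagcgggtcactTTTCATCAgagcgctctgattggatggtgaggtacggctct
Iars: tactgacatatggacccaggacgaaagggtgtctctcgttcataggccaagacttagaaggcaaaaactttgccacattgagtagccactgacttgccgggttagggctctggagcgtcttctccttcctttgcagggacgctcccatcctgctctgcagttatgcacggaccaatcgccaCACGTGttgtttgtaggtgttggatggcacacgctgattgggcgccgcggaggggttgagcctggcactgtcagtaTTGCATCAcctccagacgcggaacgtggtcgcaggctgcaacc
Yars: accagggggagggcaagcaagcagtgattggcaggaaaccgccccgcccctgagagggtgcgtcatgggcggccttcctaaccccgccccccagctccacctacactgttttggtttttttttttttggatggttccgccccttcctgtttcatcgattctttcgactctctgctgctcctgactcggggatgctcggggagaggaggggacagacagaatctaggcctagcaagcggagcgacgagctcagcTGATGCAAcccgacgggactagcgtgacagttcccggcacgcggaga
The Aars window held the ATF4 element at 2 places, both on the minus strand. A match is a string of letters, and binding was not measured.

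The targeted gene was checked first. Esrra read 4.34, 4.65 and 4.65 on resting knockout arrays, against 5.51, 5.25 and 5.51 on resting wild-type arrays, a difference of -0.87 ± 0.11 (SE, adjusted p = 2.16e-04). After stimulation the difference was -0.92 ± 0.11 (adjusted p = 3.31e-04). The position of the deletion relative to the probe set is not given in the sources used here. A 5′ probe set of the bacterial control RNA dap, added to each RNA sample, read 7.21 to 8.07 on the 12 knockout and inhibitor arrays, against 3.73 to 6.03 on the 6 untreated wild-type arrays. The other dap probe sets overlapped between these arrays: the 3′ set read 10.72 to 11.68 on knockout and inhibitor arrays, against 10.58 to 11.81 on untreated wild-type arrays, and the middle set read 9.10 to 9.96, against 8.54 to 9.66. Where knockout or inhibitor arrays are set against untreated wild-type ones, the group and the division of the arrays by the 5′ dap set cannot be told apart. The stimulation comparisons and that of the 2 inhibitors each stay on 1 side of it. All 8 T cell markers on the array reached log2 4 in every group. Markers of other cells moved with stimulation: the log2 of the summed signal of 9 macrophage genes was 5.51 to 6.48 on stimulated knockout arrays and 12.70 to 14.38 on resting knockout arrays, and it was 5.60 to 5.62 on stimulated wild-type arrays and 12.14 to 13.09 on resting wild-type arrays. That of 8 B cell genes was 8.78 to 9.52 on stimulated knockout arrays and 10.90 to 11.04 on resting knockout arrays, and it was 9.45 to 9.96 on stimulated wild-type arrays and 11.52 to 12.42 on resting wild-type arrays. The sum of 7 erythroid genes was 5.04 to 5.14 on stimulated and 11.77 to 13.54 on resting knockout arrays, and it was 5.04 on stimulated and 7.15 to 10.38 on resting wild-type arrays. That of 7 neutrophil genes was 5.03 to 8.04 on stimulated and 9.95 to 12.96 on resting knockout arrays, and it was 5.02 to 5.03 on stimulated and 5.91 to 9.27 on resting wild-type arrays. On group means 8 of the 9 macrophage genes reached log2 4 at rest in either genotype, and 0 did on stimulated or inhibitor arrays. The part of these cells in the results below was not tested, and in such bulk samples fewer cells of a type and less RNA per cell cannot be told apart.

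**Figure D1:**
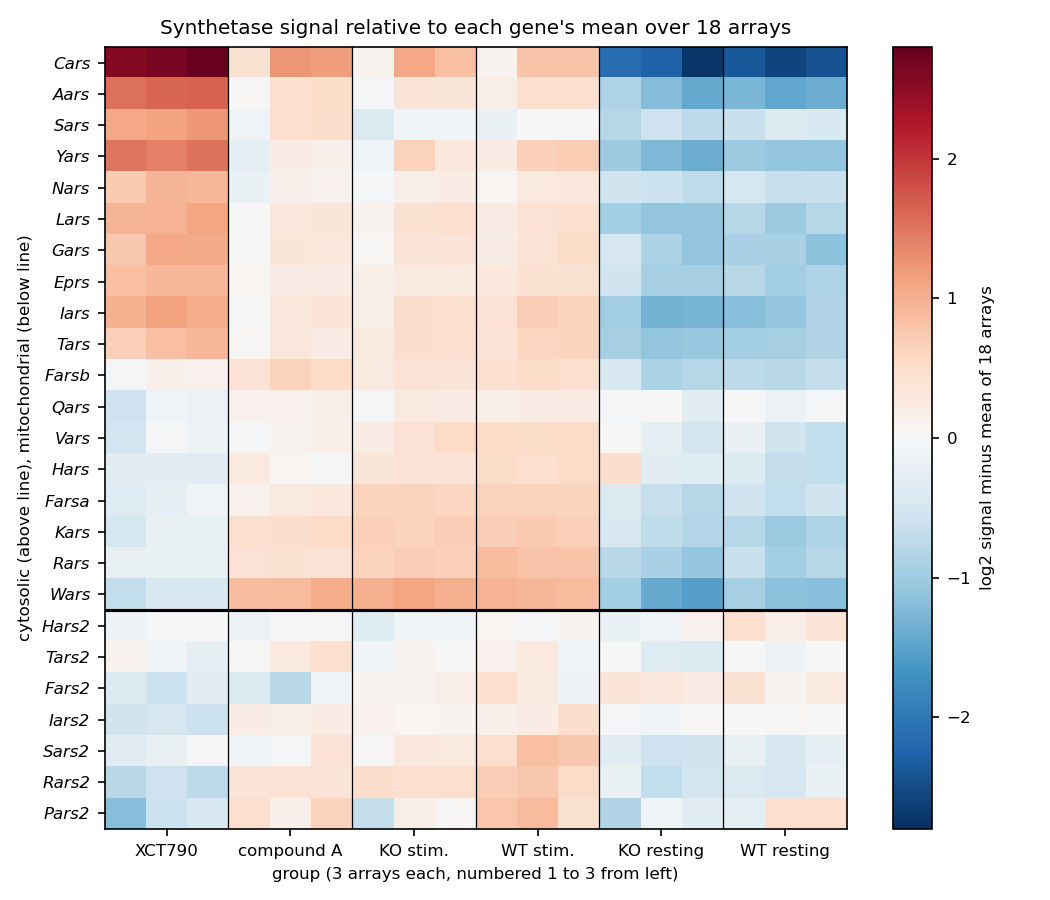
Log2 signal of the 25 tested synthetase genes on each of the 18 arrays, minus each gene's mean over the 18 arrays (colour). Columns are 6 groups of 3 arrays; rows are cytosolic genes (above the line) and mitochondrial genes (below it), each ordered by the difference of XCT790 from stimulated wild-type arrays. Cytosolic genes lie below their means on the 6 resting arrays, apart from Hars on resting knockout array 1, and Cars, Aars, Sars and Yars are highest on the XCT790 arrays.

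Most cytosolic synthetases were higher on stimulated than on resting arrays in both genotypes. Resting cells were harvested directly from the animal, so the antibodies and the 12 h outside the animal cannot be told apart. In knockout cells 17 of 18 cytosolic genes rose, with a median difference of 1.28, against a median of 0.02 over all genes tested, and 13 of them rose at least 2-fold. In wild-type cells all 18 rose, with a median of 1.31, against -0.01 over all genes, and 15 rose at least 2-fold. Counting both compartments, 19 of 25 genes rose and 0 fell in knockout cells, where 37.7% of all genes rose, 35.7% fell and 73.4% passed in either direction. In wild-type cells 21 rose and 1 fell, where 37.0% of all genes rose, 38.4% fell and 75.4% passed. The share of all genes that rose at least 2-fold was 14.5% in knockout cells and 15.7% in wild-type cells.

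Cars, which encodes cysteinyl-tRNA synthetase, had the widest difference among the 25 genes in both genotypes. It read 6.98, 7.97 and 7.72 on stimulated knockout arrays, against 4.77, 4.62 and 4.16 on resting knockout arrays. It read 6.99, 7.68 and 7.68 on stimulated wild-type arrays, against 4.52, 4.32 and 4.45 on resting wild-type arrays. The stimulated arrays all lay above the resting ones, and array 1 was the lowest of the stimulated arrays in each genotype. The difference was 3.04 ± 0.27 in knockout cells (SE, 8.23-fold, adjusted p = 1.14e-07) and 3.03 ± 0.27 in wild-type cells (SE, 8.14-fold, adjusted p = 9.94e-08). The second Cars probe set read 2.33 to 2.54 in all group means and differed by 0.13 in knockout cells and 0.18 in wild-type cells, so the Cars values rest on 1 probe set.

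Wars, the tryptophanyl-tRNA synthetase gene, which is also known as an interferon-inducible gene, was next. It read 10.22, 10.31 and 10.23 on stimulated knockout arrays, against 8.26, 7.80 and 7.68 on resting knockout arrays. It read 10.19, 10.15 and 10.11 on stimulated wild-type arrays, against 8.28, 8.07 and 8.04 on resting wild-type arrays. The groups did not overlap, with differences of 2.34 ± 0.12 in knockout cells (adjusted p = 6.44e-10) and 2.02 ± 0.12 in wild-type cells (adjusted p = 2.07e-09). All 4 Wars probe sets were higher after stimulation, by 2.34 to 3.22 in knockout cells and by 2.02 to 2.45 in wild-type cells.

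Rars, the arginyl-tRNA synthetase of the multisynthetase complex, had the smallest adjusted p of the set. It read 11.34, 11.38 and 11.37 on stimulated knockout arrays, against 9.91, 9.78 and 9.60 on resting knockout arrays. It read 11.58, 11.50 and 11.49 on stimulated wild-type arrays, against 10.06, 9.75 and 9.90 on resting wild-type arrays. Both stimulated groups lay clear of the resting ones, with differences of 1.60 ± 0.08 (adjusted p = 5.56e-10) in knockout cells and 1.62 ± 0.08 (adjusted p = 3.78e-10) in wild-type cells.

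Other enzymes of the complex rose as well. Iars rose by 1.56 in knockout cells and 1.61 in wild-type cells, Kars by 1.33 and 1.59 in the same order, Lars (leucyl) by 1.38 and 1.23, and Eprs, which charges both glutamate and proline, by 1.04 and 1.26. Qars, the glutaminyl-tRNA synthetase gene, was the exception in size. It read 10.59, 10.88 and 10.87 on stimulated knockout arrays, against 10.60, 10.63 and 10.33 on resting knockout arrays. It read 10.81, 10.84 and 10.84 on stimulated wild-type arrays, against 10.62, 10.47 and 10.57 on resting wild-type arrays. The difference was 0.26 ± 0.12 in knockout cells (adjusted p = 0.0572), where the arrays overlapped, and 0.28 ± 0.12 in wild-type cells (adjusted p = 0.0412). The wild-type call did not hold without any 1 of the 6 arrays (adjusted p = 0.05 to 0.122) or with the mean of the gene's probe sets (0.13, adjusted p = 0.208), and the other 3 Qars probe sets differed by 0.02 to 0.16 in wild-type cells.

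Outside the complex, the cytosolic genes rose by 0.44 to 3.04 in knockout cells and by 0.43 to 3.03 in wild-type cells. Aars rose by 1.39 and 1.74 in knockout and wild-type cells, Yars by 1.50 and 1.60, Tars (threonyl) by 1.45 and 1.44, Gars by 1.08 and 1.36, and the 2 subunit genes of phenylalanyl-tRNA synthetase by 1.23 and 1.24 for Farsa and by 1.04 and 1.21 for Farsb. The smaller rises were those of Vars (valyl; 0.66 in knockout and 1.01 in wild-type cells), Nars (asparaginyl; 0.72 and 0.80) and Sars (seryl; 0.52 and 0.43). The second Nars probe set differed by 1.35 in knockout cells and 1.59 in wild-type cells, so the size of the Nars response depended on the probe set. The wild-type Sars call did not hold without resting wild-type array 1 (0.36, adjusted p = 0.0521).

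Hars, the histidyl-tRNA synthetase gene, rested on single arrays in knockout cells. It read 11.08, 11.14 and 11.13 on stimulated knockout arrays, against 11.23, 10.42 and 10.38 on resting knockout arrays. It read 11.25, 11.21 and 11.28 on stimulated wild-type arrays, against 10.35, 10.08 and 10.05 on resting wild-type arrays. Resting knockout array 1 lay above all stimulated knockout arrays. The rise of 0.44 ± 0.17 in knockout cells (adjusted p = 0.0302) did not pass without resting knockout array 2 or 3 or without any 1 of the stimulated knockout arrays (0.29 to 0.46, adjusted p = 0.0508 to 0.152), nor in a fit of the compared groups alone (adjusted p = 0.155); in wild-type cells the rise was 1.09 ± 0.17 (adjusted p = 3.91e-05).

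**Figure D2:**
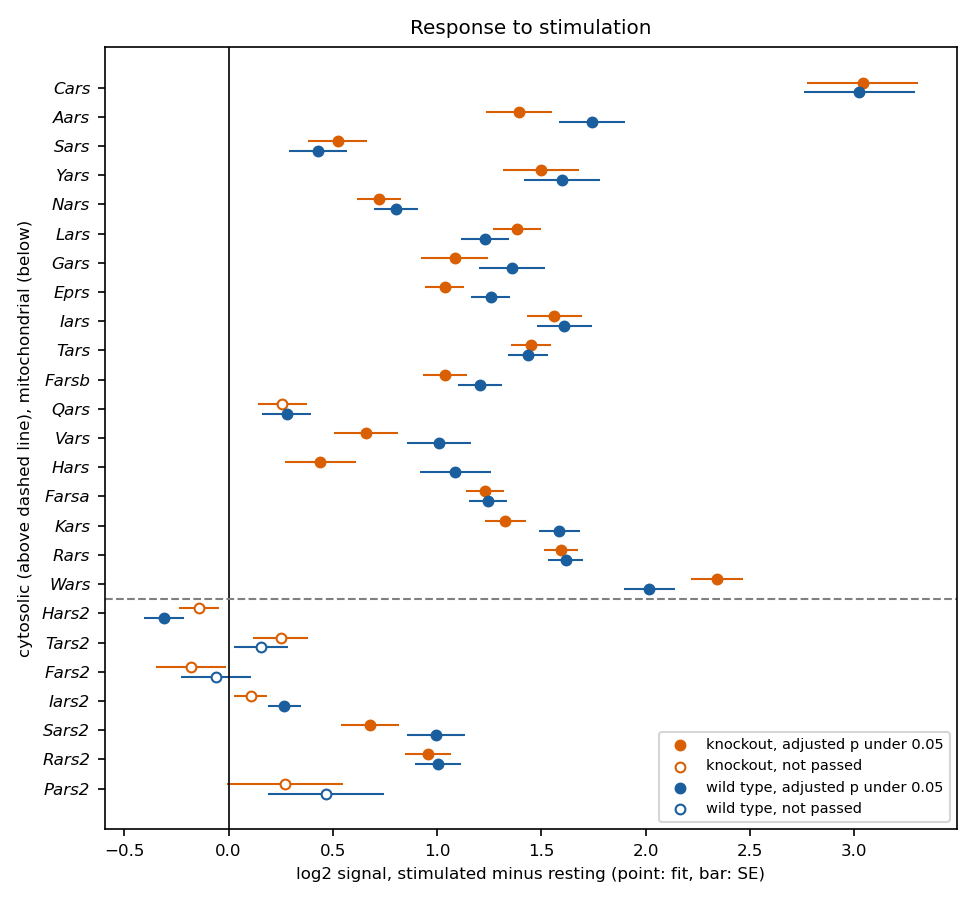
Log2 signal of stimulated minus resting arrays for each tested synthetase gene (horizontal axis) in knockout and wild-type cells, 3 arrays per group. Points are fitted differences, bars are SE, and open points did not pass at an adjusted p under 0.05; cytosolic genes lie between 0.26 and 3.04, and mitochondrial genes between -0.31 and 1.00.

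Of 7 mitochondrial enzymes tested, 2 rose and 0 fell in knockout cells, where 37.7% of all genes rose and 35.7% fell, with a median of 0.25. In wild-type cells 3 rose and 1 fell, where 37.0% of all genes rose and 38.4% fell, with a median of 0.27. The counts of rises lie near those shares, and the difference between the compartments was not tested. Rars2, the mitochondrial arginyl enzyme, read 9.29, 9.27 and 9.27 on stimulated knockout arrays, against 8.60, 8.11 and 8.25 on resting knockout arrays. It read 9.48, 9.55 and 9.33 on stimulated wild-type arrays, against 8.40, 8.33 and 8.62 on resting wild-type arrays. The groups did not overlap, and the gene rose by 0.96 ± 0.11 in knockout cells (adjusted p = 1.94e-06) and by 1.00 ± 0.11 in wild-type cells (adjusted p = 9.95e-07).

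Sars2, the mitochondrial seryl enzyme, was the other gene to rise in both genotypes. It read 5.76, 6.03 and 5.99 on stimulated knockout arrays, against 5.42, 5.15 and 5.16 on resting knockout arrays. It read 6.20, 6.56 and 6.48 on stimulated wild-type arrays, against 5.51, 5.28 and 5.46 on resting wild-type arrays. Stimulated arrays were higher throughout, by 0.68 ± 0.14 in knockout cells (adjusted p = 4.94e-04) and 1.00 ± 0.14 in wild-type cells (adjusted p = 1.3e-05).

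Iars2 (isoleucyl) rose by 0.27 ± 0.08 in wild-type cells (adjusted p = 0.00697), a call that did not hold in a fit of the compared groups alone (adjusted p = 0.0502), and differed by 0.11 in knockout cells (adjusted p = 0.24). Hars2 (histidyl) was the only tested synthetase gene that fell on stimulation, in wild-type cells. It read 7.02, 7.24 and 7.24 on stimulated knockout arrays, against 7.18, 7.27 and 7.49 on resting knockout arrays. It read 7.43, 7.32 and 7.45 on stimulated wild-type arrays, against 7.81, 7.56 and 7.76 on resting wild-type arrays. The knockout arrays overlapped (-0.14, adjusted p = 0.197), whereas the wild-type arrays did not (-0.31 ± 0.10, adjusted p = 0.00906). The second Hars2 probe set differed by -0.04 in knockout cells and 0.04 in wild-type cells, and the wild-type call was lost with the mean of both (-0.13, adjusted p = 0.162). Fars2 (phenylalanyl), Pars2 (prolyl) and Tars2 (threonyl) passed in neither genotype, with differences of -0.18, 0.27 and 0.25 in knockout cells and of -0.06, 0.47 and 0.16 in wild-type cells.

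Pairs of enzymes for the same amino acid were compared by their changes. In wild-type cells the cytosolic change exceeded the mitochondrial change by 1.40 for Hars and Hars2, by 1.34 for Iars and Iars2 and by 1.30 for Farsa and Fars2, with the per-array differences of stimulated arrays all above those of resting arrays. For Sars and Sars2 the order was the other way, with a difference of -0.57 that was also free of overlap. In knockout cells the same 4 pairs differed by 0.58, 1.46, 1.41 and -0.16, and the arrays overlapped for the Hars and Sars pairs. The other 3 pairs, Farsb and Fars2, Tars and Tars2, and Rars and Rars2, differed by 1.22, 1.20 and 0.64 in knockout cells and by 1.27, 1.28 and 0.61 in wild-type cells, without overlap. In RefSeq, Hars and Hars2 are neighbouring genes with no protein-coding gene between them.

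Relative to each gene's mean over the 18 arrays, the median of the 18 cytosolic genes was 0.17 to 0.42 on stimulated knockout arrays and -0.996 to -0.673 on resting knockout arrays. It was 0.34 to 0.54 on stimulated wild-type arrays and -0.93 to -0.78 on resting wild-type arrays. The median of the 7 mitochondrial genes was 0.03 to 0.10 on stimulated knockout arrays and -0.32 to -0.12 on resting knockout arrays. It was 0.28 to 0.48 on stimulated wild-type arrays and -0.01 to 0.04 on resting wild-type arrays.

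Factors that work beside the synthetases were read from lists, to be set against 37.7% of all genes that rose and 35.7% that fell in knockout cells, and 37.0% that rose and 38.4% that fell in wild-type cells. The 3 scaffold genes of the multisynthetase complex all rose in both genotypes: Aimp2 by 1.42 in knockout cells and 1.48 in wild-type cells, Eef1e1 by 1.39 and 1.43, and Aimp1 by 0.74 and 0.78. Of 15 tested genes for tRNA maturation and export, 12 rose and 2 fell in knockout cells, and 12 rose and 1 fell in wild-type cells; Rpp40, a subunit of ribonuclease P, rose by 2.20 in knockout cells and 2.27 in wild-type cells. Of 19 tRNA modification genes, 15 rose and 1 fell in knockout cells, and 14 rose and 0 fell in wild-type cells; Mettl1, which methylates guanosine in tRNA, rose by 2.37 and 2.41. The 3 mitochondrial elongation genes rose in both genotypes, by 1.00 to 1.54 in knockout cells and by 0.94 to 1.66 in wild-type cells, whereas of 4 cytosolic elongation genes 1 rose and 0 fell in knockout cells and 1 rose and 1 fell in wild-type cells. Mitochondrial glutaminyl-tRNA is made without a dedicated synthetase, by the amidotransferase of Gatb, Gatc and Qrsl1. Its subunits moved apart: Gatb rose by 1.27 in knockout cells and 0.96 in wild-type cells, Gatc rose by 0.39 and 0.69, and Qrsl1 fell by 0.38 and 0.44.

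Few synthetase genes passed between the genotypes at rest. The genotype and the division of the arrays by the 5′ dap probe set cannot be told apart in this comparison. On resting knockout against resting wild-type arrays 1 of 25 genes rose and 1 fell, where 6.74% of all genes rose, 12.3% fell and 19.0% passed in either direction. Hars rose by 0.52 ± 0.17 (adjusted p = 0.0475) on the arrays given above, with resting knockout array 1 at 11.23 and all resting wild-type arrays at 10.35 or lower. The Hars call did not pass without resting knockout array 1 (0.24, adjusted p = 0.125), resting wild-type array 2 (0.48, adjusted p = 0.131) or resting wild-type array 3 (0.46, adjusted p = 0.149). Hars2 fell by 0.40 ± 0.10 (adjusted p = 0.0133), with no overlap between 7.18 to 7.49 on resting knockout and 7.56 to 7.81 on resting wild-type arrays, and did not pass without resting wild-type array 3 (-0.37, adjusted p = 0.0545). The other 23 genes differed by -0.65 (Pars2, adjusted p = 0.111) to 0.24 (Kars, adjusted p = 0.103). In a fit of the compared groups alone neither passed (adjusted p = 0.242 for Hars and 0.114 for Hars2). Without resting wild-type array 2, 1 gene passed, and without resting wild-type array 3, 0 of the 25 did. With array weights 10 passed, 9 of them lower in the knockout, and the share of all genes in that fit was not taken.

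Markers of other cells differed between these resting groups too. The log2 of the summed signal of 7 erythroid genes was 11.77 to 13.54 on resting knockout arrays, against 7.15 to 10.38 on resting wild-type arrays. That of 7 neutrophil genes was 9.95 to 12.96 on resting knockout arrays, against 5.91 to 9.27 on resting wild-type arrays. Their part in the Hars and Hars2 differences was not tested. Of 17 amino acid response genes at rest 1 rose and 2 fell, near the 6.74% and 12.3% of all genes; the one that rose was Asns, which makes asparagine, by 2.92 (adjusted p = 0.00279).

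After stimulation, 0 of 25 synthetase genes passed between knockout and wild-type arrays by limma, where 2.18% of all genes did. An unadjusted p under 0.05 was found for 4 of the 25, and the share of all genes at that threshold was not taken. All 3 stimulated knockout arrays lay below all 3 stimulated wild-type arrays for 10 of the 25 genes, where 23.0% of all genes did so, and above them for 1 gene, where 9.75% did. Sars2 differed by -0.49 (95% interval -0.79 to -0.19, adjusted p = 0.0973). Pars2 read 4.16, 4.99 and 4.86 on stimulated knockout arrays, against 5.60, 5.70 and 5.24 on stimulated wild-type arrays, a difference of -0.84 (95% interval -1.44 to -0.25, adjusted p = 0.152). These 2 genes had no overlap between the groups, and their intervals do not show that the genotypes act alike. With array weights 5 genes passed, all lower in the knockout: Eprs, Iars2, Pars2, Rars2 and Sars2. The share of all genes passing with array weights was not taken, so the 2.18% is no measure for this count. The estimation of the weights also stopped before convergence. The change in the stimulation response with genotype passed for 0 of 25 genes by limma, where 0.902% of all genes passed. Only 1 gene, Hars, had an unadjusted p under 0.05 (-0.65 ± 0.24, adjusted p = 0.191). With array weights Hars and Wars passed. For these last counts too the share of all genes was not taken.

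On XCT790 arrays the cytosolic synthetases were split into 2 groups, and most mitochondrial ones were lower. The compound and the division of the arrays by the 5′ dap probe set cannot be told apart in this comparison. Against stimulated wild-type arrays 10 of 25 genes rose and 13 fell, where 29.1% of all genes rose, 36.9% fell and 66.0% passed in either direction. Of the 18 cytosolic genes 10 rose and 8 fell, and of the 7 mitochondrial genes 0 rose and 5 fell. The median difference was 0.38 for cytosolic genes, -0.82 for mitochondrial genes and -0.06 for all genes tested. All 23 genes that passed were free of overlap between XCT790 and stimulated wild-type arrays, where 32.8% of all genes lay higher without overlap and 42.9% lower. Cell type markers moved in this comparison too. The log2 of the summed signal of 8 B cell genes was 8.93 to 9.35 on XCT790 arrays, against 9.45 to 9.96 on stimulated wild-type arrays. That of 8 T cell genes was 14.93 to 15.05 on XCT790 arrays, against 15.05 to 15.24 on stimulated wild-type arrays. The genes of each list did not move alike. Cd3d, Cd3e, Cd3g, Cd247 and Cd4 (8.57 against 9.60) had lower means with XCT790, and Cd5, Cd28 (12.62 against 12.15) and Zap70 had higher ones. Of the B cell genes, Ms4a1 was lower (8.523 against 9.451), and Cd79b (6.595 against 6.035) and Blk (6.055 against 5.786) were higher. The part of these cells in the XCT790 results was not tested.

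Cars rose most. It read 9.46, 9.54 and 9.66 on XCT790 arrays, against 6.99, 7.68 and 7.68 on stimulated wild-type arrays, a difference of 2.10 ± 0.27 (4.29-fold, adjusted p = 7.95e-06). Aars read 11.58, 11.68 and 11.68 on XCT790 arrays, against 10.20, 10.52 and 10.50 on stimulated wild-type arrays (1.24 ± 0.16, adjusted p = 8.47e-06). Sars read 11.71, 11.76 and 11.84 on XCT790 arrays, against 10.44, 10.63 and 10.63 on stimulated wild-type arrays (1.20 ± 0.14, adjusted p = 3.39e-06). In each of these 3 genes every XCT790 array lay above every array of the other groups, including the compound A arrays. The Sars rise with XCT790 was larger than its rise on stimulation, given above as 0.43 in wild-type cells.

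Yars read 8.10, 8.02 and 8.13 on XCT790 arrays, against 6.81, 7.26 and 7.31 on stimulated wild-type arrays (0.96 ± 0.18, adjusted p = 3.09e-04). Nars, Lars, Gars, Eprs and Iars rose by 0.65, 0.64, 0.60, 0.51 and 0.48. Tars rose least, by 0.28 ± 0.10 (adjusted p = 0.0198), and did not pass without stimulated wild-type array 1 (0.20, adjusted p = 0.1) or XCT790 array 3 (0.22, adjusted p = 0.0856). The second probe sets of Aars, Nars, Iars and Sars and the 2 other probe sets of Eprs differed in the same direction, by 0.55 to 1.32.

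Wars fell most among cytosolic genes. It read 8.54, 8.77 and 8.77 on XCT790 arrays, against 10.19, 10.15 and 10.11 on stimulated wild-type arrays, a difference of -1.46 ± 0.12 (2.75-fold lower, adjusted p = 1.74e-07). Its other 3 probe sets were lower by 1.69 to 1.91 on the log2 scale. Rars read 10.47, 10.52 and 10.51 on XCT790 arrays, against 11.58, 11.50 and 11.49 on stimulated wild-type arrays (-1.02 ± 0.08, adjusted p = 1.14e-07). Kars read 10.41, 10.71 and 10.70 on XCT790 arrays, against 11.60, 11.64 and 11.57 on stimulated wild-type arrays (-0.99 ± 0.10, adjusted p = 7.49e-07). These falls left both genes above their resting wild-type arrays. Farsa, Hars, Vars, Qars and Farsb fell by 0.90, 0.83, 0.77, 0.48 and 0.40 on the log2 scale.

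The split did not follow the multisynthetase complex or the enzyme class, the 2 structural families of synthetases. Of 6 tested complex enzymes 3 rose (Eprs, Iars and Lars) and 3 fell (Kars, Qars and Rars). Of 9 class I cytosolic genes 5 rose and 4 fell, and of 9 class II genes 5 rose and 4 fell. Among 11 tested enzymes listed as targets of ATF4, 10 rose and 1, Wars, fell, with a median of 0.64. All 7 tested cytosolic enzymes outside that list fell, with a median of -0.83. The list was drawn up with results of these arrays known and is not independent evidence of direction. Of the 7 risers with a promoter window 5 held the ATF4 element, among them the 3 windows printed above, and of the 4 genes that fell and had a window, 0 did. The element occurred in 3.97% of all windows. Cars, Lars and Nars, which rose, and Hars, Rars, Vars and Wars, which fell, had no window. A part of the element in the split was not tested. Gars and Kars, which each serve both compartments, moved apart.

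**Figure D3:**
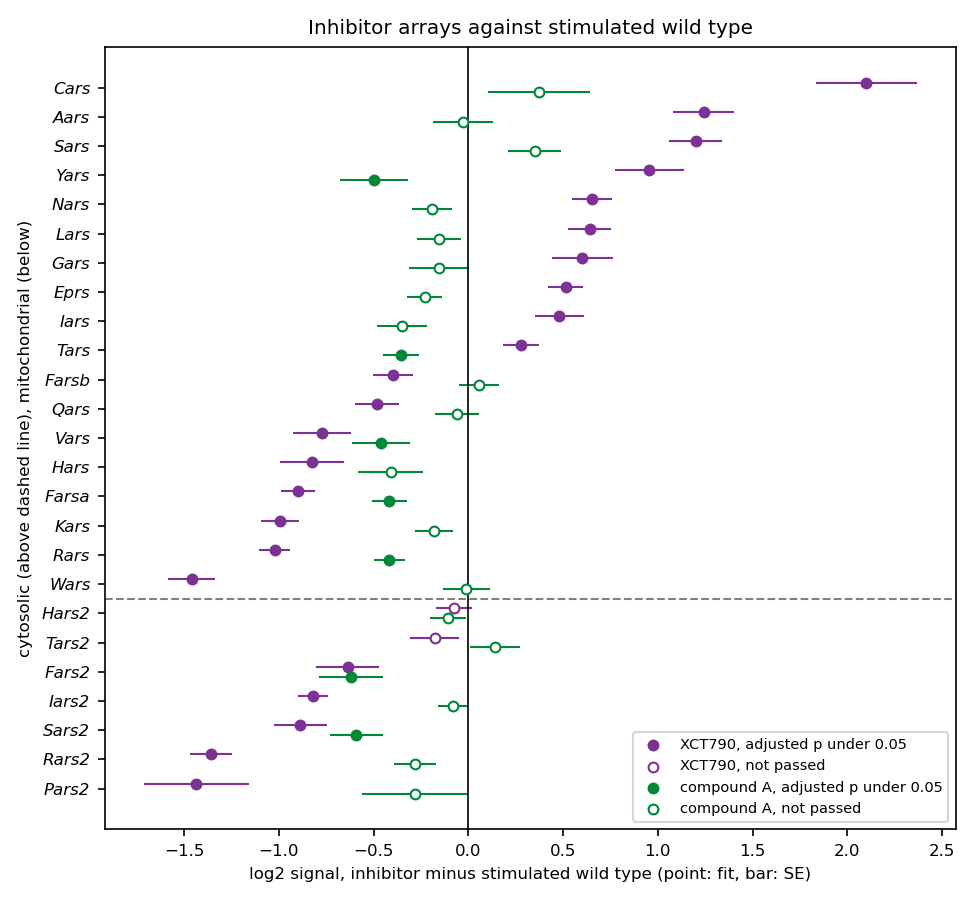
Log2 signal of inhibitor arrays minus stimulated wild-type arrays for each tested synthetase gene (horizontal axis), for XCT790 and compound A, 3 arrays per group. Points are fitted differences, bars are SE, and open points did not pass at an adjusted p under 0.05; XCT790 differences run from -1.46 to 2.10 and compound A differences from -0.62 to 0.37.

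Of the mitochondrial enzymes, Rars2 read 8.02, 8.21 and 8.07 on XCT790 arrays, against 9.48, 9.55 and 9.33 on stimulated wild-type arrays (-1.36 ± 0.11, 2.56-fold lower, adjusted p = 1.14e-07). Pars2 read 3.62, 4.22 and 4.39 on XCT790 arrays, against 5.60, 5.70 and 5.24 on stimulated wild-type arrays (-1.44 ± 0.28, adjusted p = 3.63e-04). Iars2 read 7.13, 7.21 and 7.08 on XCT790 arrays, against 7.82, 7.88 and 8.18 on stimulated wild-type arrays (-0.82 ± 0.08, adjusted p = 5.61e-07). In each of these genes the XCT790 arrays lay below the stimulated wild-type ones, and for Iars2 also below every array of the other groups. Sars2 fell by 0.89 and Fars2 by 0.64 on the log2 scale, while Hars2 (-0.07, 95% interval -0.28 to 0.13) and Tars2 (-0.18, 95% interval -0.46 to 0.10) did not pass.

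Enzymes for the same amino acid could therefore differ in sign. With XCT790 the cytosolic change minus the mitochondrial change was 2.09 for Sars and Sars2 and 1.30 for Iars and Iars2, and it was -0.75 for Hars and Hars2, all without overlap. For Rars and Rars2, where both fell, it was 0.33, also without overlap. The arrays overlapped for the other 3 pairs, at 0.45 for Tars and Tars2, 0.24 for Farsb and Fars2 and -0.26 for Farsa and Fars2.

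**Figure D4:**
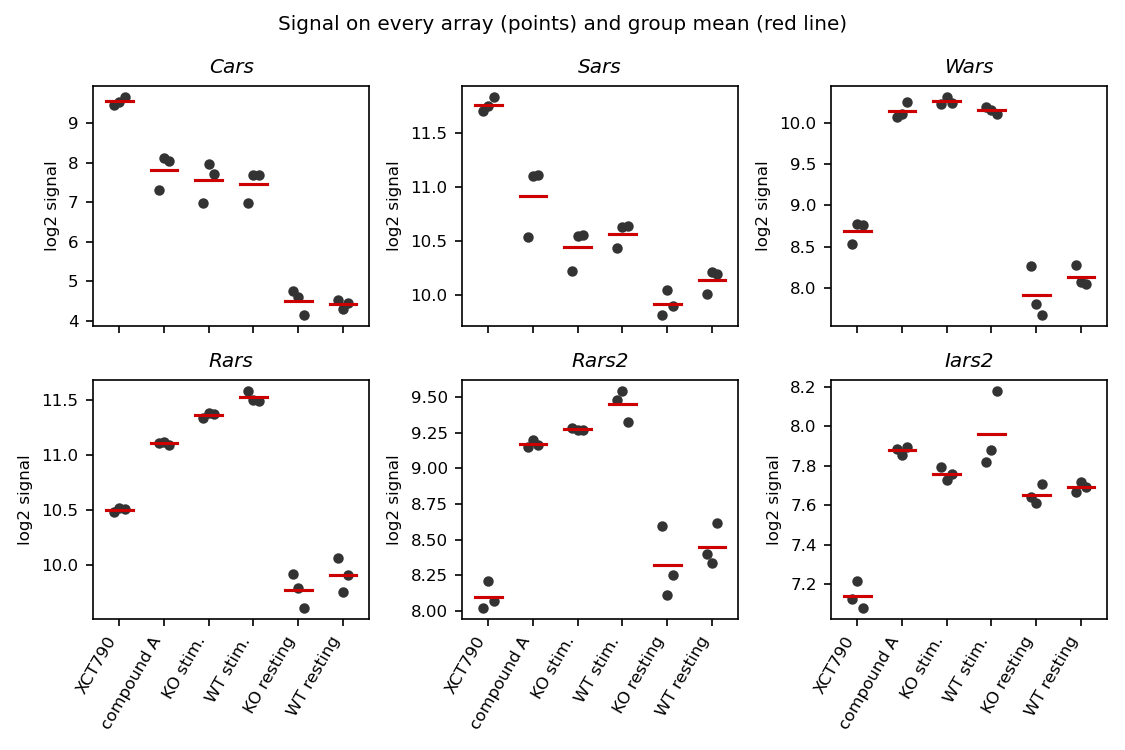
Log2 signal of Cars, Sars, Wars, Rars, Rars2 and Iars2 on every array (points, numbered 1 to 3 from left in each group) with the group mean (red line); each panel has its own vertical axis, which does not start at 0. Cars and Sars are highest on XCT790 arrays, Wars and Rars lie between resting and stimulated arrays there, and Iars2 is lowest there.

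Other genes of the pathway are set against 29.1% of all genes that rose with XCT790 and 36.9% that fell. Of 17 tested genes of the amino acid response 14 rose and 0 fell, and 11 rose at least 2-fold, where 8.93% of all genes did. The list was drawn up with earlier results of these data known. A gene under log2 4 on stimulated wild-type arrays could pass the filter through the XCT790 arrays, where it is high. The count is therefore not independent evidence of direction. Trib3, a pseudokinase induced by ATF4, rose at least 38.8-fold (6.28 on the log2 scale, adjusted p = 4.57e-09), Chac1, which degrades glutathione, at least 6.23-fold (adjusted p = 4.22e-09), and Sesn2, a leucine sensor, 4.73-fold (adjusted p = 1.25e-09); the lower bounds are taken against log2 4, since the stimulated wild-type arrays lay under it. Atf4 itself rose by 1.14. All 3 scaffold genes of the complex fell, by 0.43 to 0.55 on the log2 scale, as did all 3 mitochondrial elongation genes, by 0.70 to 1.40. Of 15 tRNA maturation and export genes 1 rose and 10 fell; the one that rose was Xpot, which exports tRNA from the nucleus, by 1.06. Of 19 tRNA modification genes 1 rose and 13 fell. Of 7 genes for mitochondrial tRNA charging 0 rose and 3 fell, and only these 3 falls lie near the share of all genes.

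Compound A had smaller differences. Against stimulated wild-type arrays 0 of 25 synthetase genes rose and 7 fell, where 14.5% of all genes rose, 18.7% fell and 33.2% passed in either direction. The median was -0.19 for cytosolic genes, -0.28 for mitochondrial genes and -0.03 for all genes tested. The T cell sum was 15.27 to 15.37 (log2) on compound A arrays, against 15.05 to 15.24 on stimulated wild-type arrays, and its part was not tested. Rars read 11.11, 11.12 and 11.09 on compound A arrays, against 11.58, 11.50 and 11.49 on stimulated wild-type arrays (-0.42 ± 0.08, adjusted p = 0.00177). Farsa read 9.58, 9.70 and 9.76 on compound A arrays, against 10.10, 10.10 and 10.09 on stimulated wild-type arrays (-0.42 ± 0.09, adjusted p = 0.00338). Sars2 read 5.65, 5.68 and 6.14 on compound A arrays, against 6.20, 6.56 and 6.48 on stimulated wild-type arrays (-0.59 ± 0.14, adjusted p = 0.00534). These 3 genes showed no overlap and passed without any 1 of the arrays.

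The other 4 calls were less firm. Tars (-0.35, adjusted p = 0.0115) did not pass without stimulated wild-type array 3 (-0.31, adjusted p = 0.0525) or compound A array 1 (-0.28, adjusted p = 0.0502), and Fars2 (-0.62, adjusted p = 0.0116), whose arrays overlapped, did not pass without stimulated wild-type array 1 (-0.48, adjusted p = 0.0601) or compound A array 2 (-0.44, adjusted p = 0.0648). Vars (-0.46, adjusted p = 0.0332) did not pass without any 1 of the 6 arrays (adjusted p = 0.0618 to 0.0925). Yars (-0.50, adjusted p = 0.0479) did not pass without stimulated wild-type array 2 or 3 or without any 1 compound A array (adjusted p = 0.0539 to 0.182). In a fit of the compared groups alone neither Yars nor Fars2 passed (adjusted p = 0.0853 each). Without stimulated wild-type array 3 or compound A array 2 4 genes passed. Blocking on the array number gave 10 genes, 3 more than without it: Hars (-0.41, adjusted p = 0.049) and Iars (-0.35, adjusted p = 0.0441) fell and Sars rose (0.35, adjusted p = 0.0107), against adjusted p of 0.0787, 0.0526 and 0.0677 without it. With array weights 14 passed, 2 of them higher, and the share of all genes in that fit was not taken. Of 17 amino acid response genes 3 rose with compound A, near the 14.5% of all genes, and 1 fell, where 18.7% of all genes did. Ddit3 rose by 1.16, Trib3 by 1.29 (at least 1.22-fold) and Slc3a2, a transporter heavy chain, by 0.66. Slc7a5, its light chain, fell by 0.47. Against the same shares, 0 of 15 tRNA maturation and export genes rose and 8 fell, and 0 of 19 tRNA modification genes rose and 10 fell. Of 3 scaffold genes 0 rose and 2 fell, as for the 3 mitochondrial elongation genes. Of 7 genes for mitochondrial tRNA charging 0 rose and 2 fell.

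XCT790 and compound A were at the same dose and time and form the 1 pair of compounds compared, with p-values adjusted over all genes. Of 25 genes 10 were higher and 9 lower with XCT790, where 24.8% of all genes were higher, 27.8% lower and 52.6% passed in either direction. The 10 higher were Aars, Cars, Eprs, Gars, Iars, Lars, Nars, Sars, Tars and Yars. Cars was higher by 1.73 ± 0.27 (adjusted p = 9.16e-05), Yars by 1.45 ± 0.18 (adjusted p = 1.43e-05) and Aars by 1.27 ± 0.16 (adjusted p = 1.48e-05). Wars was lower by 1.45 ± 0.12 on the log2 scale, reading 8.54, 8.77 and 8.77 on XCT790 arrays, against 10.07, 10.10 and 10.25 on compound A arrays. Rars2 differed by -1.08, Pars2 by -1.15 and Iars2 by -0.74. Kars, Rars, Farsa, Farsb and Qars were lower as well, by 0.42 to 0.81 on the log2 scale.

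Genes that did not pass between the compounds were Hars (95% interval -0.78 to -0.05), Vars (-0.64 to 0.02), Sars2 (-0.60 to 0.00), Tars2 (-0.60 to -0.04), Fars2 (-0.38 to 0.34) and Hars2 (-0.17 to 0.24). The intervals of Hars and Tars2 exclude 0, although neither passed after adjustment over all genes. The structure of compound A is not given in the sources used here.

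Set against resting wild-type arrays, as the stimulation field of the labels would have it, most cytosolic genes were higher with either inhibitor. With XCT790 15 of 25 genes rose and 5 fell, where 33.6% of all genes rose, 38.3% fell and 71.9% passed in either direction. With compound A 19 rose and 2 fell, where 32.6% rose, 37.1% fell and 69.7% passed. Cars was 34.9-fold higher with XCT790 and 10.5-fold higher with compound A than on resting arrays, the widest rises of the set. The 5 that fell with XCT790 were all mitochondrial, Pars2 (-0.97), Fars2 (-0.70), Iars2 (-0.55), Hars2 (-0.39) and Rars2 (-0.35), of which Rars2 did not pass without resting wild-type array 3 (-0.27, adjusted p = 0.056). The 2 that fell with compound A were Fars2 (-0.68) and Hars2 (-0.42). The Hars2 fall did not pass with the mean of the gene's probe sets (-0.16, adjusted p = 0.1). The Sars2 rise of 0.40 with compound A did not pass without resting wild-type array 2 (0.34, adjusted p = 0.0746) or compound A array 3 (0.25, adjusted p = 0.111). Comparisons that share the stimulated or resting wild-type arrays are not independent of each other.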

How the data were processed

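RNA was measured on 18 Affymetrix Mouse Genome 430A 2.0 arrays, 3 per group, grouped by the labels. The deposited values are log2 signals that the authors made with GCRMA, per the submitters' processing notes; its version is not stated. All arrays hold the same sorted values, so changes are relative to the other genes. Probe sets for controls (64 of 22690), for no gene (1555) and for several genes (691) were not used. Gene names come from the platform annotation. The members and all gene lists were chosen with earlier results of these data known.

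All 6873 genes above the filter were fitted with limma 3.58.1 (R 4.3.3), 1 mean per group (residual degrees of freedom 12, prior 2.22), by two-sided tests with Benjamini-Hochberg adjustment within each comparison; an adjusted p under 0.05 passed. The p-values measure the spread between the samples, and 3 arrays per group limit the precision. Figures after ± are standard errors from this fit. Fold changes against a group wholly under log2 4 are bounds.

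The named genes were Esrra; in each comparison and compartment the 5 largest passing differences and those opposite to most of the class; in genotype and inhibitor comparisons up to 8 by adjusted p; pairs by the largest and smallest differences; up to 3 genes per pathway list by adjusted p; the mitochondrial route to glutaminyl-tRNA; and promoters of up to 3 genes with a motif. Others were named after their values were seen. Protein sequences, also in the rule, were not used here. The fit was also run on simulated arrays with independent noise and known changes on stimulated wild-type arrays only. Equally numbered arrays of this study correlated, so that run does not show how firm the calls are.

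The array number was checked as a pairing: deviations of equally numbered arrays correlated above 0.1 for all 3 numbers in knockout stimulated against resting (0.238 to 0.336), knockout against wild type at rest (0.254 to 0.645) and stimulated (0.148 to 0.442), XCT790 (0.15 to 0.253) and compound A (0.287 to 0.474) against stimulated wild type. The alternatives tried were array weights, the array number as a block, each array left out in turn, a fit of the compared groups alone, a prior that is trended and robust, probe sets averaged per gene, arrays shifted to 1 median, and a filter at log2 6 or none. Figures used matplotlib 3.10.9 (Python 3.11.15).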

Additional observations from a re-analysis of the deposited data

How the results depend on the processing

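The counts of synthetase genes passing kept within 1.5 times under all alternatives for stimulation in both genotypes, XCT790 against stimulated wild-type, compound A and resting wild-type arrays, and compound A against resting wild-type arrays. Of the genes that passed, 18 of 19 (knockout stimulation), 18 of 22 (wild-type stimulation), 22 of 23 (XCT790 against stimulated) and 19 of 19 (XCT790 against compound A) passed under every alternative, but 3 of 7 for compound A against stimulated and 0 of 2 for resting knockout against resting wild type. For the last comparison, in which 2 genes passed, 1 passed with no filter, 4 with the mean of all probe sets, 0 with only the compared groups, 10 with array weights, and 0 to 3 when single arrays were left out. With array weights, 5 genes passed between stimulated genotypes and 2 in the interaction, against 0 for each, and 14 for compound A against stimulated cells, against 7; leaving out single arrays gave 4 to 6 there. The estimation of array weights stopped before convergence. Shares of all genes passing were taken without these alternatives only, so the counts under the alternatives have no such share beside them. Farsb at rest (knockout minus wild type) was -0.35 with the mean of its 4 probe sets, against 0.03; 1 of the 4 averaged 2.59 on resting knockout and 4.26 on resting wild-type arrays.

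With the array number as a replicate block the counts were 19 (knockout stimulation), 22 (wild-type stimulation), 2 (genotype at rest), 0 (genotype after stimulation), 0 (interaction), 23 (XCT790), 10 (compound A), 20 (XCT790 against compound A, with Hars added), 20 (XCT790 against resting) and 21 (compound A against resting). Apart from the 3 genes added for compound A, the block changed no call among the paired comparisons.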
